A study of Mus musculus with 4 samples.

Results

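T and NK lymphocytes were examined in single-cell transcriptomes of the mouse digit at the middle phalanx (P2). FVB/NJ wild-type mice, 8 weeks old and pooled from both sexes per the labels, had the digit cut through the middle of P2, a level at which the stump scars and does not regrow. There were 4 groups of 1 library each: the unamputated, homeostatic digit, and the fibrosing digit at 12, 17 and 28 days post-amputation (dpa). Tissue for all 4 libraries was hand-dissected and dissociated in trypsin followed by collagenase I. After lysis of erythrocytes, cells that excluded propidium iodide were sorted as live. The number of animals in each pool was not given in the sources used here. The lymphocytes were chosen by their transcripts, counted as unique molecular identifiers (UMIs). Cells with 500 or more genes, 1000 or more UMIs and no more than 10% of them mitochondrial entered. They needed 1 or more UMIs of Ptprc, which encodes the leukocyte antigen CD45. They had none of Csf1r, which marks macrophages, and fewer than 2 of Cd79a and Cd79b, which mark B cells. They also had 3 or more UMIs over Cd3e, Cd3d, Cd3g, Nkg7, Klrb1c and Ncr1. This gate held 640 of the 39266 cells that passed the quality limits and of 50625 barcodes in all: 328 in the unamputated library, 130 at 12 dpa, 138 at 17 dpa and 44 at 28 dpa. Gate cells with a UMI of Cd3e, Cd3d or Cd3g were called Cd3-positive (553 cells), and the others Cd3-negative (87 cells). With 1 library a group no test was possible and no difference has a replicate check, so the 95% intervals below cover counting error only.

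Cd3e, Cd3d and Cd3g encode the CD3 chains that carry the signal of the T cell antigen receptor, whose binding part is either an alpha-beta pair (constant genes Trac, Trbc1 and Trbc2) or a gamma-delta pair (Trdc and the Tcrg genes). Skin and other barrier tissues hold resident T cells, among them Foxp3-expressing regulatory T cells, which restrain inflammation and can make the repair factor amphiregulin (Areg), and gamma-delta T cells that make interleukin 17. NK cells lack CD3 and kill through granzymes and perforin; they carry the receptors Klrb1c (NK1.1), Ncr1 (NKp46) and the Klra and Klrd1 families, and, like type 1 T cells, they make interferon gamma (Ifng) and the chemokine Ccl5.

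The gate held 2 kinds of cell that its label does not name together. In 127 gate cells S100a8 and S100a9, the calcium-binding proteins that fill neutrophils, took over 2% of all UMIs: 85 of 328 gate cells in the unamputated library, 0 of 130 at 12 dpa (which allows up to 2.31%, taking 3 counts as the limit for a count of 0 here and below, a little under the upper exact bound), 41 of 138 at 17 dpa and 1 of 44 at 28 dpa. The median share of these 2 genes was 25.6% in such cells of the unamputated library and 20.4% at 17 dpa, against 0 in the other gate cells of every library, and 8, 0, 0 and 1 cells lay between 0.5 and 4%. The other 8 genes of the neutrophil list, which the split did not use, were all detected in them in the unamputated and 17 dpa libraries. Only 6 of the 85 and 7 of the 41 had any UMI of 10 T and NK transcripts that the gate did not use (among them Trac, Trbc1, Trbc2, Trdc, Cd2, Cd247, Lck, Skap1 and Icos), and the 1 cell at 28 dpa had none. Among the other Cd3-positive cells 183 of 187, 127 of 127, 85 of 85 and 35 of 35 had such a UMI, in the order unamputated, 12, 17 and 28 dpa, and among the other Cd3-negative cells 55 of 56, 3 of 3, 12 of 12 and 8 of 8. The cells rich in S100a8 and S100a9 are therefore called S100-rich here and described apart, a split chosen after the data were seen, and the remaining 434 Cd3-positive and 79 Cd3-negative cells are called T cells and Cd3-negative lymphocytes.

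**Figure D1:**
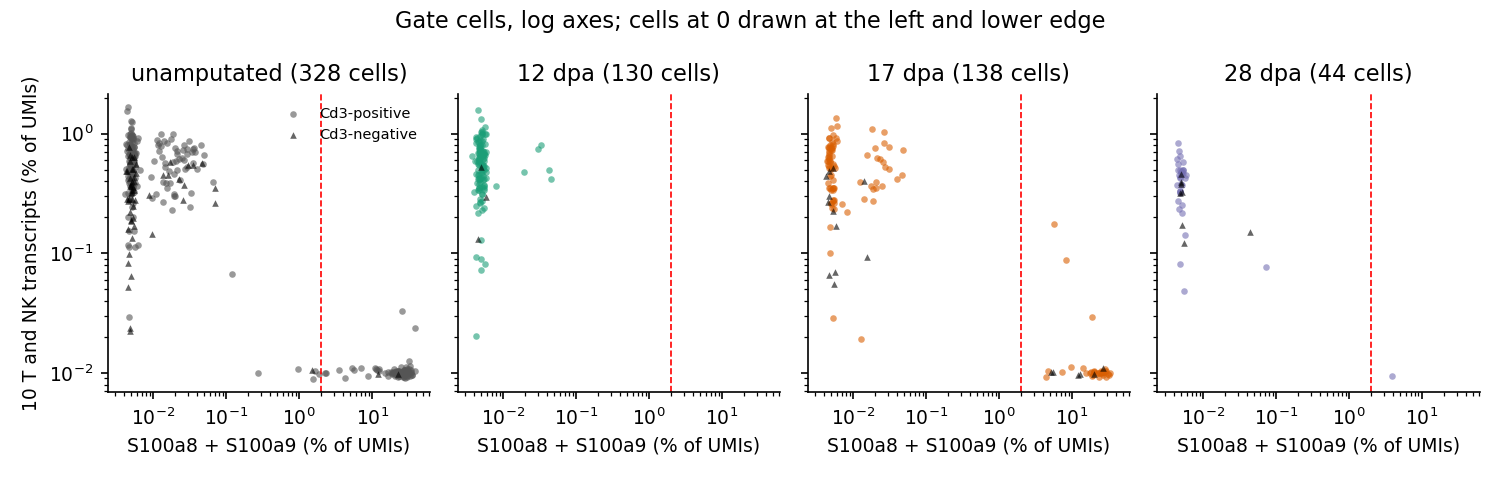
Each point is 1 gate cell, with the share of its UMIs in S100a8 and S100a9 on the x axis and the share in the 10 T and NK transcripts on the y axis, both in % on log axes with cells at 0 drawn at the edge with a small scatter; circles are Cd3-positive and triangles Cd3-negative cells, and the dashed line marks 2%. The 85 S100-rich cells of the unamputated library and the 41 at 17 dpa lie right of the line and mostly at the lower edge.

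Most S100-rich cells met the rule through Cd3d alone. Cd3d had 311 UMIs in 83 of the 85 cells of the unamputated library, where Cd3e had 1 and Cd3g 2. Of the 85 cells 75 met the rule on Cd3d alone, as did 32 of 41 at 17 dpa and 1 of 1 at 28 dpa. In turn 2 and 6 cells of the unamputated and 17 dpa libraries met it on Nkg7 alone. In all S100-rich cells of a library, gated or not, Cd3d was found in 448 of 884 (50.7%) unamputated, 32 of 169 (18.9%) at 12 dpa, 175 of 407 (43%) at 17 dpa and 24 of 107 (22.4%) at 28 dpa, at median depths of 4797.5, 1771, 3704 and 1441 UMIs. After each cell was thinned to 1000 UMIs the shares were 15.4%, 11.2%, 14.3% and 15.9%. In stromal cells (Col1a1 at 10 UMIs or more, no Ptprc) no Cd3d UMI was left in any library, which allows at most 0.105%. In Csf1r-positive leukocytes the shares were 0.698%, 0.596%, 0.436% and 0.145%. At full depth Cd3e was in 2, 0, 2 and 0 of the S100-rich cells and Cd3g in 13, 2, 5 and 3. T cells were chosen partly on these genes and are not compared here. Most S100-rich cells with Cd3d had neither Cd3e nor Cd3g. Whether these reads come from Cd3d transcripts of the S100-rich cells or from other RNA that aligns to that gene was not tested.

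The 3 CD3 genes lie close together on mouse chromosome 9, where the starts of Cd3g and Cd3d point away from each other and are 1355 bases apart. Their promoter sequences, 250 bases upstream of each RefSeq start on GRCm38.p6, are shown because Cd3d was detected without its neighbours; capitals mark E-boxes (CANNTG, which reads the same on both strands), the sites of E proteins. Cd3g is at chr9:44980432-44980681 on the minus strand, Cd3d at chr9:44981536-44981785 on the plus strand and Cd3e at chr9:45009612-45009861 on the minus strand.
Cd3g: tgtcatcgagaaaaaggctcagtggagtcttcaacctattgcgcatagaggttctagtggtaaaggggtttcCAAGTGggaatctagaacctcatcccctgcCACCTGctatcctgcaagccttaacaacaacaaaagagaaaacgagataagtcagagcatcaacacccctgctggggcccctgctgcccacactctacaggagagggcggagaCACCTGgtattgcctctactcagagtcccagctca
Cd3d: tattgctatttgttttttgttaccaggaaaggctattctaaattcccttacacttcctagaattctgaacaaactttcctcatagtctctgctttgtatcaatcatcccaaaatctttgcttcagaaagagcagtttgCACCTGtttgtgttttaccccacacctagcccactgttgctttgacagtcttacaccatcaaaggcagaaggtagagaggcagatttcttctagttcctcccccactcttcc
Cd3e: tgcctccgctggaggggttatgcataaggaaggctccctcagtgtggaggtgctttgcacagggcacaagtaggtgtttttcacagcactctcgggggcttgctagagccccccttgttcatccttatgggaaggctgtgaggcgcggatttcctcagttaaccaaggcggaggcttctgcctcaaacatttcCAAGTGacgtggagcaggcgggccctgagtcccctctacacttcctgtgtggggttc
There were 3 matches upstream of Cd3g, 1 of Cd3d and 1 of Cd3e, and 66.2% of 32851 promoters of the same length hold at least 1. The C/EBP motif TTGCNNAA, named for factors of the neutrophil lineage, had no match in any of the 3 windows and is in 9.56% of promoters. The ETS motif CAGGAA had 1 match each at Cd3d and Cd3e (25.7% of promoters), the GATA motif AGATAA 1 at Cd3g (9.99%) and the RUNX motif TGTGGT none (14%). A match is only a run of letters, and no match says nothing about binding.

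S100-rich cells lay on both sides of the threshold of 3 UMIs. Just inside it, at a sum of 3, there were 59, 9, 27 and 8 cells, of which 40, 0, 20 and 1 were S100-rich. Of the others, 18 of 19, 9 of 9, 7 of 7 and 7 of 7 had 1 of the 10 T and NK transcripts. Just outside, at a sum of 2, there were 155, 17, 59 and 14 cells, of which 118, 3, 43 and 3 were S100-rich. Of the others, 23 of 37, 8 of 14, 9 of 16 and 8 of 11 had such a transcript.

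The libraries differed in depth and in the sex of their cells. Median UMIs per cell past the quality limits were 12394, 9987, 8898 and 7114 in the order unamputated, 12, 17 and 28 dpa, and in T cells 5311, 3437, 4001 and 2844; T cells gave 1382934, 570458, 483137 and 122482 UMIs in sum. The label of pooled sexes did not hold for the lymphocytes: gate cells had 275 UMIs of Xist at 12 dpa and 0 in the other libraries, and 4 Y-linked genes together had 1093, 0, 357 and 56 UMIs. The 12 dpa lymphocytes thus carried female transcripts only and those of the other libraries male transcripts only, and what is particular to 12 dpa cannot be told apart from sex or from the animals of that pool. Of the gate barcodes 3, 1, 1 and 1 also occurred in another library, and none in another gate. Scrublet scores at an assumed rate of 0.8% per 1000 barcodes marked 11, 6, 4 and 2 T cells as doublets, 9 of 56, 0 of 3, 4 of 12 and 1 of 8 Cd3-negative lymphocytes, and 10 of 85, 7 of 41 and 0 of 1 S100-rich gate cells in the 3 libraries that had them. All were kept unless stated.

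T cells made up a smaller share of all cells at 17 and 28 dpa than in the unamputated and 12 dpa libraries. They were 187 of 11954 cells past the limits (1.56%, 95% interval 1.35 to 1.8) in the unamputated library and 127 of 6942 (1.83%, 1.53 to 2.17) at 12 dpa. Later they were 85 of 8693 (0.978%, 0.782 to 1.21) in the 17 dpa library and 35 of 11677 (0.3%, 0.209 to 0.417) in the 28 dpa library. The interval at 28 dpa lies below the other 3 and that at 17 dpa below those of the unamputated and 12 dpa libraries. With every cell thinned to 2000 UMIs before the rule was applied, the shares were 1.02%, 1.3%, 0.638% and 0.209%, in the same order of size. Of cells with a Ptprc UMI, T cells were 4.44% (3.84 to 5.11), 7.26% (6.09 to 8.57), 3.38% (2.71 to 4.16) and 1.32% (0.921 to 1.83). On this scale the 12 dpa interval lies above that of the unamputated library, and the 17 dpa interval overlaps it.

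Cd3-negative lymphocytes were 56 cells (0.468%, 0.354 to 0.608) of the unamputated library, 3 (0.0432%) at 12 dpa, 12 (0.138%) at 17 dpa and 8 (0.0685%) at 28 dpa. Here the unamputated interval lies above the other 3 values. Thinned to 2000 UMIs they numbered 30, 0, 7 and 7, and the 0 of 6623 cells at 12 dpa allows a share of up to 0.0453% by the limit of 3 counts (exact upper bound 0.0557%). Taken whole, with the S100-rich cells, the gate held 2.74% (2.46 to 3.05), 1.87%, 1.59% and 0.377% of cells. A share of sorted cells moves with the numbers of all other cells and with how well each type survives digestion, and neither was tested.

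**Figure D2:**
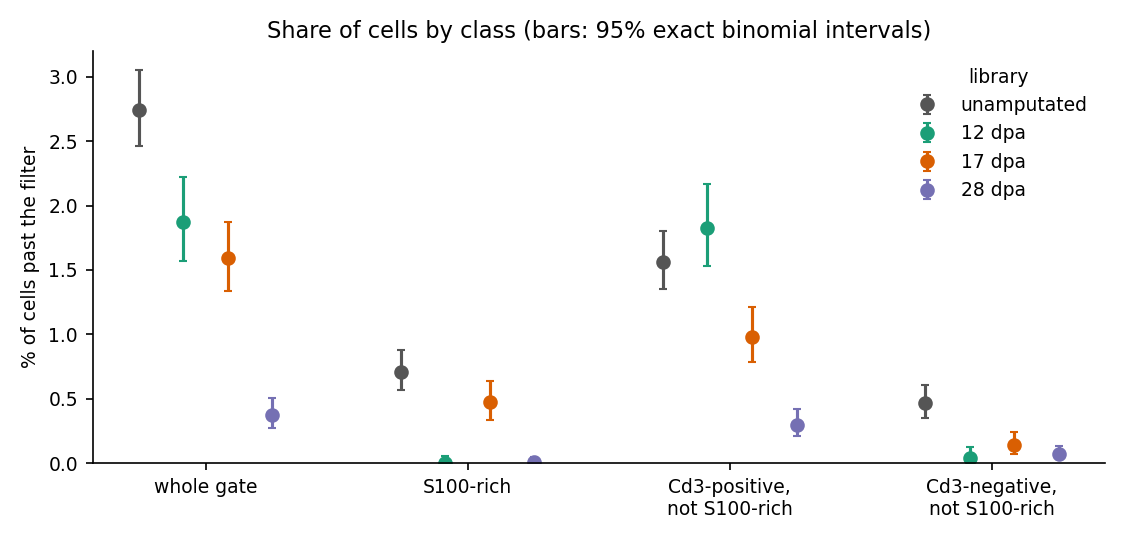
Share of the cells past the quality limits, in %, on the y axis, for the whole gate and its 3 classes on the x axis, 1 point for each library with its exact 95% binomial interval. T cells (Cd3-positive, not S100-rich) are at 1.83% at 12 dpa and 0.3% at 28 dpa, and S100-rich cells are found mainly in the unamputated and 17 dpa libraries.

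The classes carried the transcripts of their names beyond the genes of the rule. In T cells Cd3g was detected in 173 of 187, 122 of 127, 77 of 85 and 32 of 35 cells and Cd3e in 161, 107, 64 and 27 of them, which the rule fixes in part. Levels are given as CPM, the UMIs of a gene or list in the summed cells of a class, scaled to the same total UMIs in every class and library. Leaving out the genes of the rule, among genes at 50 CPM or more in T cells of every library, the 10 with the highest smallest ratio of T cells to Cd3-negative lymphocytes were Trac, Cd6, Il1rl1, Cd4, Tnfrsf4, Cd163l1, Irf4, Slamf1, Foxp3 and Cd5. Trac had 422, 201, 128 and 35 UMIs in T cells and 0 in Cd3-negative lymphocytes of all 4 libraries, and Cd6, a receptor that tunes T cell signalling, had 301, 153, 106 and 18 against 0. The 10 of the reverse direction were Klrb1b, Car2, Serpinb6b, Sult2b1, Hhex, Plek, Tyrobp, Prf1, Ugcg and Klrd1. They include the separate NK receptor genes Klrb1b and Klrd1, the signalling adaptor of activating NK receptors (Tyrobp) and perforin (Prf1). Against Csf1r-positive leukocytes of the same library, the gate without S100-rich cells had Skap1, Trac, Il2rb, Trbc1, Lck, Trdc, Ptprcap, Icos and Trbc2 among the 10 genes that set it apart most. Trac had 422, 201, 128 and 35 UMIs over all 243, 130, 97 and 43 such gate cells, against 27, 20, 11 and 8 over 2291, 1175, 1605 and 2065 Csf1r-positive cells. These contrasts describe classes that the rule made, with only 3 Cd3-negative lymphocytes at 12 dpa, and no test was run on them.

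Trac was found in most T cells, Cd4 in fewer and Cd8a or Cd8b1 in few. Trac without Trdc was found in 122 of 187 (65.2%, 57.9 to 72) T cells of the unamputated library, 82 of 127 (64.6%) at 12 dpa, 55 of 85 (64.7%) at 17 dpa and 18 of 35 (51.4%, 34 to 68.6) at 28 dpa. Cd4 without Cd8a or Cd8b1 was in 93 (49.7%), 63 (49.6%), 34 (40%) and 10 (28.6%) T cells, and Cd8a or Cd8b1 without Cd4 in 8, 6, 4 and 1 (4.28%, 4.72%, 4.71% and 2.86%). The intervals of these shares overlap between all 4 libraries. Summed levels of Trac were 305.1, 352.3, 264.9 and 285.8 CPM. The median log2 ratio of the 16 genes of receptor signalling to the unamputated library was -0.01, 0.19 and -0.18 at 12, 17 and 28 dpa, beside -0.17, -0.12 and -0.35 over 13129 genes at 5 CPM or more in any library, the minimum for list members too. Of these genes 59.4%, 56.4% and 61.3% were lower and 39.3%, 42.1% and 37.8% higher. At least 2-fold lower were 15.3%, 13.9% and 31.9%, and at least 2-fold higher 8.06%, 8.44% and 11.6%. With genes at 0 UMIs in 1 library set to a floor of 3 UMIs over the group, and to 0 where the floor leaves no difference, the median over all of them was -0.12, -0.05 and 0. In stromal cells, which should lack these genes and were deeper (medians 18636, 14180, 12390 and 9383 UMIs), Trac without Trdc was in 5.08%, 4.29%, 1.7% and 0.953% of cells and in 0.62%, 0.453%, 0.158% and 0.0545% after thinning to 1000 UMIs, against 26.7%, 34.6%, 25.9% and 25.7% in T cells thinned alike. Reads of near-identical genes such as Trbc1 and Trbc2, the Tcrg constant genes and the Klra family may be split or dropped in counting, so their values are uncertain.

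Foxp3, the defining factor of regulatory T cells, was found in a smaller share of T cells at 17 and 28 dpa. It was detected in 91 of 187 (48.7%, 41.3 to 56.1) T cells of the unamputated library and 50 of 127 (39.4%, 30.8 to 48.4) at 12 dpa. In the 17 dpa library it was in 15 of 85 (17.6%, 10.2 to 27.4), and in the 28 dpa library in 6 of 35 (17.1%, 6.56 to 33.6). The intervals at 17 and 28 dpa lie below that of the unamputated library, and the 12 and 17 dpa intervals do not overlap. After thinning to 1000 UMIs the shares were 14.4% (9.74 to 20.3), 19.7% (13.2 to 27.7), 8.24% and 8.57%, and at that depth the intervals of the unamputated and later libraries overlap. Stromal cells had Foxp3 in 0.0886%, 0.139%, 0.0946% and 0.0272% of cells. Over all Cd3-positive gate cells, S100-rich ones included, the shares were 33.7%, 39.4%, 12.5% and 16.7%.

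**Figure D3:**
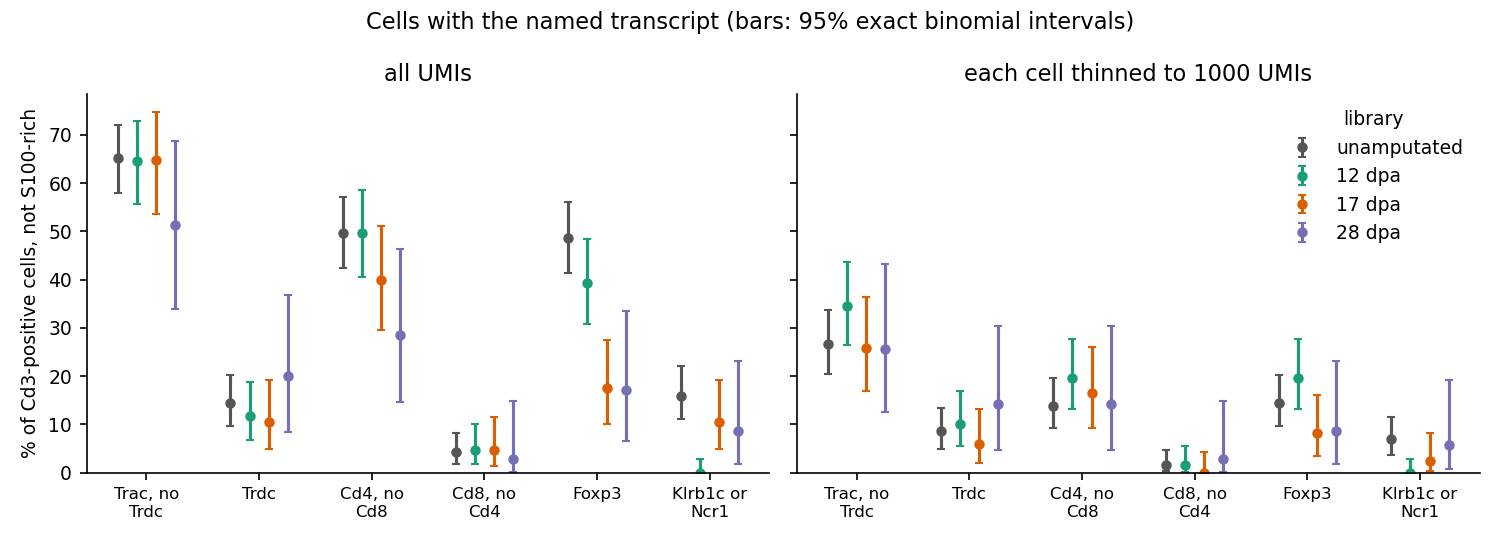
Share of T cells, in %, on the y axis, in which the transcripts named on the x axis were found, 1 point for each library with its exact 95% binomial interval, at full depth on the left and with each cell thinned to 1000 UMIs on the right. Foxp3 is at 48.7% and 39.4% of T cells in the unamputated and 12 dpa libraries and at 17.6% and 17.1% at 17 and 28 dpa; Klrb1c or Ncr1 is found in no T cell at 12 dpa.

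The regulatory programme was lower at 17 dpa along with Foxp3. In T cells Foxp3 was at 165.6, 157.8, 58 and 57.2 CPM (229, 90, 28 and 7 UMIs). The log2 ratio to the unamputated library was -0.07 (-0.44 to 0.29) at 12 dpa. It was -1.5 (-2.14 to -0.95) for the 17 dpa library and -1.52 (-2.87 to -0.47) for the 28 dpa library. The 2 later libraries lie at about the same level, and the first 2 likewise. Il2ra, the interleukin 2 receptor chain that regulatory T cells hold at high level, was at 683.3, 508.4, 252.5 and 285.8 CPM, and Ctla4, an inhibitory receptor, at 865.6, 1128.9, 306.3 and 383.7 CPM. Both are lower at 17 and 28 dpa than in either earlier library, with log2 ratios of -1.43 and -1.5 at 17 dpa and -1.25 and -1.17 at 28 dpa. Il10, the anti-inflammatory cytokine, was at 300.8, 266.5, 64.2 and 40.8 CPM (ratio -2.21, -2.81 to -1.7, at 17 dpa and -2.85 at 28 dpa, from 5 UMIs). Tnfrsf9, a costimulatory receptor of activated cells, was at 420.1, 497.8, 74.5 and 155.1 CPM (-2.48 at 17 dpa). Of the 13 genes of the regulatory list 7 were higher and 6 lower at 12 dpa (median log2 ratio 0.01). At 17 dpa 1 was higher and 12 lower (median -0.75), and 5 were higher and 8 lower at 28 dpa (median -0.36). At least 2-fold lower were 6 genes at 17 dpa and 6 at 28 dpa. The 1 higher gene at 17 dpa was Nrp1, named after its value was seen. Of all genes at the same minimum 13.9% and 31.9% were at least 2-fold lower at these times. Lower by any size were 56.4% at 17 dpa and 61.3% at 28 dpa, where the list's median is about that of all genes. The checkpoint list, which shares Ctla4 and Tigit with it, had medians of -0.42, -1.37 and -1.62 (-1.1 at 28 dpa with 1 gene at the floor), with 5 of 8 genes at least 2-fold lower at 17 dpa. Havcr2 (Tim-3) was at 192.3, 145.5, 18.6 and 32.7 CPM and Lag3 at 60, 43.8, 6.21 and 8.16 CPM.

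Within the Foxp3-positive cells themselves, 91, 50, 15 and 6 cells, Ctla4, Il2ra, Il10 and Il1rl1 were at lower levels at 17 and 28 dpa than in the unamputated library. These are single genes, and the regulatory list was not counted in these cells. Ctla4 was at 1299.7, 1640.7, 757.9 and 512.7 CPM there, Il2ra at 1097.3, 740.5, 475.5 and 699.2, and Il10 at 392.1, 452.3, 208.1 and 93.2. The receptor for interleukin 33, Il1rl1 (ST2), which marks tissue regulatory T cells, was at 608.7, 412.4, 267.5 and 46.6 CPM, from 385, 93, 18 and 1 UMIs. The later values rest on few cells: 18 UMIs of Il1rl1 at 17 dpa came from 8 cells, and 14 UMIs of Il10 from 3. At 28 dpa the 6 cells held 21454 UMIs in sum, and 1 of them had Il10. No intervals are given for these levels, so the 28 dpa values, Il2ra included, are uncertain. Areg was at 197.6, 527.7 and 312.1 CPM (125, 119 and 21 UMIs in 17, 17 and 3 cells) in the first 3 libraries and had no UMI in the 6 cells at 28 dpa. Granzyme B (Gzmb), which regulatory T cells can use, was at 218.2, 603.1, 163.5 and 93.2 CPM. Both were highest at 12 dpa, also over all T cells, where Areg was at 167, 308.5, 184.2 and 40.8 CPM (log2 ratio 0.88, 0.59 to 1.17, at 12 dpa) and Gzmb at 154, 362.9, 107.6 and 49 CPM (1.23, 0.95 to 1.52). Without the cell with most UMIs in each library the 12 dpa ratios were 0.85 and 1.25. At 12 dpa, 25 of the 44 Gzmb-positive T cells and 17 of the 28 Areg-positive ones had Foxp3. For Gzmb at 17 dpa the sign depends on weighting: the log2 ratio was -0.51 from summed UMIs and 0.07 from the mean over cells. The 12 dpa values cannot be told apart from the sex of that library, and whether they follow it was not tested.

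T cells with Trdc, the constant gene of the delta chain, differed in what they expressed with it. Trdc does not mark gamma-delta T cells alone, since it was also in 20 of 56, 0 of 3, 2 of 12 and 4 of 8 Cd3-negative lymphocytes. Trdc was found in 27 of 187 (14.4%, 9.74 to 20.3), 15 of 127 (11.8%), 9 of 85 (10.6%) and 7 of 35 (20%, 8.44 to 36.9) T cells, with intervals that overlap, and in 1.51%, 1.57%, 0.851% and 0.354% of stromal cells. Cd163l1 (SCART1), a scavenger receptor of interleukin-17-type gamma-delta cells, was in 6 of 27, 15 of 15, 3 of 9 and 4 of 7 Trdc-positive cells. Ccl5 was in 18, 0, 4 and 3 of them, and no cell had both. All 15 Trdc-positive cells at 12 dpa thus had Cd163l1 and none had Ccl5, while in the unamputated library 16 of 27 carried Klrb1c or Ncr1, 13 of them together with Ccl5 and 3 together with Cd163l1. Neither Cd163l1 nor Ccl5 was found in 3, 0, 2 and 0 of the Trdc-positive cells. Among T cells, Cd163l1 had no UMI in a Trdc-negative cell of any library, and the variable segments Trdv4 and Tcrg-V6 likewise had none. Trdv4 had 20, 37, 10 and 6 UMIs in 7, 13, 3 and 3 Trdc-positive cells, and Tcrg-V6 had 12 UMIs in 7 of the 15 cells at 12 dpa. In Trdc-positive cells Il23r, the interleukin 23 receptor, was at 405.5, 1005.7, 154.4 and 384.9 CPM. Blk, a kinase of these cells, was at 158.4, 522.2, 173.7 and 128.3 CPM there, from 25, 27, 9 and 3 UMIs. Both had their highest CPM at 12 dpa. They are single genes, and no list is given for these cells.

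The interleukins 17 themselves were in a handful of cells. Il17a had 23, 41, 30 and 7 UMIs in 6, 6, 7 and 2 T cells (16.6, 71.9, 62.1 and 57.2 CPM), and Il17f 4, 0, 43 and 12 UMIs in 1, 0, 5 and 2 cells. At 28 dpa 1 cell held 85.7% of the Il17a UMIs, and the log2 ratio of Il17a, 1.72, was 0.3 without the cell with most UMIs in each library and -0.71 at a rule sum of 5. Il17f gave the highest log2 ratio at 17 dpa among genes of the naming rule, 4.53 (3.48 to 6.88), with 44.2% of its UMIs in 1 cell, and 4.67 at 28 dpa with 66.7% in 1 cell. At 17 dpa 37 of its 43 UMIs were in cells with neither Trdc nor Foxp3. The type 17 list had a median log2 ratio of 0.61, 0.23 and 0.53 at 12, 17 and 28 dpa over 15 genes, with 3, 5 and 6 at least 2-fold higher and 1, 0 and 2 at least 2-fold lower. Of the 15 genes 10, 9 and 10 were higher and 4, 5 and 5 lower. Of all genes at the same minimum 39.3%, 42.1% and 37.8% were higher and 59.4%, 56.4% and 61.3% lower. At least 2-fold higher were 8.06%, 8.44% and 11.6% of them, and at least 2-fold lower 15.3%, 13.9% and 31.9%.

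Most measured type 1 and cytotoxic transcripts were lower in T cells at 12 dpa than in the unamputated library. Ccl5, a chemokine of effector T and NK cells, had 574 UMIs in 40 of 187 T cells (415.1 CPM) of the unamputated library, 3 in 3 of 127 (5.26 CPM) at 12 dpa, 390 in 25 of 85 (807.2 CPM) at 17 dpa and 169 in 11 of 35 (1379.8 CPM) at 28 dpa. Of the Ccl5-positive cells 23, 0, 5 and 2 carried Klrb1c or Ncr1, 14, 2, 14 and 5 had Trac and 18, 0, 4 and 3 had Trdc. A single Cd3 UMI places a cell among T cells, so NK cells with such a UMI are not kept apart. Cells with an NK receptor (30, 0, 9 and 3 T cells) and Cd3-negative lymphocytes (56, 3, 12 and 8) were also fewest at 12 dpa, and their part in these values was not tested. The log2 ratios were -6.05 (-8.58 to -4.75), 0.96 (0.77 to 1.15) and 1.73 (1.48 to 1.98), and 1.37 at 28 dpa without the cell with most UMIs in each library. After thinning to 1000 UMIs Ccl5 was in 16% (11.1 to 22.1), 0% (0 of 127), 18.8% and 22.9% of T cells, and stromal cells had it in 0.0591%, 0.105%, 0.158% and 0%. The 12 dpa library alone stands apart in this share; the other 3 intervals overlap. Of the 12 measured genes of the cytotoxic and type 1 list 11 were lower and 1 higher at 12 dpa (Gzmb), where 59.4% of all genes were lower. At least 2-fold lower were 8 of the 12 and 15.3% of all genes. Ifng, Tnf and Ctsw, named after their values were seen, had log2 ratios of -0.07, -0.04 and -0.12 with intervals that span 0. The median log2 ratio of the list was -2.08, or -1.73 with genes at 0 UMIs set to a floor of 3 UMIs over the group. At the later times 6 were higher and 6 lower at 17 dpa (median 0.3), and 5 higher and 7 lower at 28 dpa (median -0.88). Of all genes 56.4% and 61.3% were lower at these times, so neither count of lower genes is above that background. Xcl1, a chemokine for cross-presenting dendritic cells, had 79, 0, 44 and 3 UMIs, which makes it at least 10.9-fold lower at 12 dpa, and perforin had 30, 0, 10 and 4. Ccl3 and Ccl4, chemokines that attract T cells and macrophages, were low in T cells of all 3 amputated libraries. Ccl4 was at 148.2, 21, 16.6 and 0 CPM, with 43.9% of the unamputated UMIs in 1 cell, and Ccl3 at 70.1, 5.26, 4.14 and 0 CPM. At 17 dpa the direction turns with the S100-rich cells: over all Cd3-positive gate cells the log2 ratio of Ccl3 was 1.74 (1.49 to 2.01) and that of Ccl4 1.05 (0.83 to 1.28), with 88.3% and 87.6% of the 17 dpa UMIs in 1 cell. S100-rich gate cells held 272 UMIs of Ccl3 in 11 cells and 274 of Ccl4 in 5 cells there.

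Ifng was high at 17 dpa only. It had 51, 20, 205 and 3 UMIs in 19, 6, 17 and 2 T cells (36.9, 35.1, 424.3 and 24.5 CPM), a log2 ratio of -0.07 (-0.9 to 0.7), 3.49 (3.08 to 4) and -0.57 (-2.91 to 1.04). At 17 dpa 204 of the 205 UMIs were in 16 cells with neither Foxp3 nor Trdc; 1 cell held 23.9% of them, and without the cell with most UMIs in each library the ratio was 3.4. Of the 17 cells 12 had Trac, 7 had Cd4 and 2 had Cd8a or Cd8b1. The share of T cells with Ifng after thinning was 5.35% (2.59 to 9.61), 2.36%, 15.3% (8.4 to 24.7) and 2.86%, against 0 to 0.0272% of stromal cells, and the intervals of the unamputated and 17 dpa libraries overlap. Fasl, the death ligand, was at 20.2, 7.01, 70.4 and 8.16 CPM, and Tnf at 83.2, 80.6, 161.4 and 98 CPM. Both share the high value at 17 dpa, with log2 ratios of 1.75 (1.03 to 2.57) and 0.95 (0.52 to 1.38).

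NK receptor genes were also low in T cells at 12 dpa. Klrb1c and Ncr1 are genes of the gate rule, so their shares are a description. Either was in 30 of 187 (16%), 0 of 127 (which allows a UMI in up to 2.36% of cells by the limit of 3 counts, or 2.86% by the exact bound), 9 of 85 (10.6%) and 3 of 35 (8.57%) T cells, at median depths of 5311, 3437, 4001 and 2844 UMIs. Thinned to 1000 UMIs the shares were 6.95% (3.75 to 11.6), 0% (0 to 2.86), 2.35% and 5.71%. Klrd1 (CD94) was at 118.6, 3.51, 47.6 and 73.5 CPM, and Tyrobp and Fcer1g, adaptors of activating NK receptors, were at 108.5, 0, 43.5 and 253.1 and at 83.2, 0, 43.5 and 98 CPM. Neither adaptor had a UMI in any of the 127 T cells at 12 dpa, at least 20.6-fold and 15.8-fold lower than in the unamputated library. Myeloid cells express both adaptors too: they were in 85 and 84 of the 85 S100-rich cells of the unamputated library, and at 297 and 241.3 CPM in all cells outside the gate, above the T cells. The neutrophil list in T cells was at 1039.8 CPM in the unamputated library and 12.3 CPM at 12 dpa, and its part in the adaptors' values was not tested. Over the 17 measured genes of the NK list 16 were lower and 1 higher at 12 dpa, with a median log2 ratio of -2.54, or -1.55 with the 7 genes at 0 UMIs set to the floor. Of them 12 were lower at 17 dpa (median -0.92) and 9 at 28 dpa (median -0.62, or 0 with 4 genes at the floor). Over all genes 59.4%, 56.4% and 61.3% were lower at 12, 17 and 28 dpa, so the count at 28 dpa is not above that background. Most listed genes of naive and recirculating T cells were low at 12 dpa too. Klf2, a factor of quiescent, recirculating T cells, was at 171.4, 52.6, 103.5 and 244.9 CPM. Lef1 and Tcf7, factors of naive and memory cells, were at 159.8, 49.1, 238 and 195.9 and at 68.7, 22.8, 134.5 and 106.1 CPM. The list of 9 had medians of -1.04, 0.34 and 0.42, with 7 lower and 2 higher at 12 dpa, where 59.4% of all genes were lower. The 2 were Ccr7 (log2 ratio 1.01, 0.37 to 1.69) and Il7r (0.195), named after their values were seen.

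**Figure D4:**
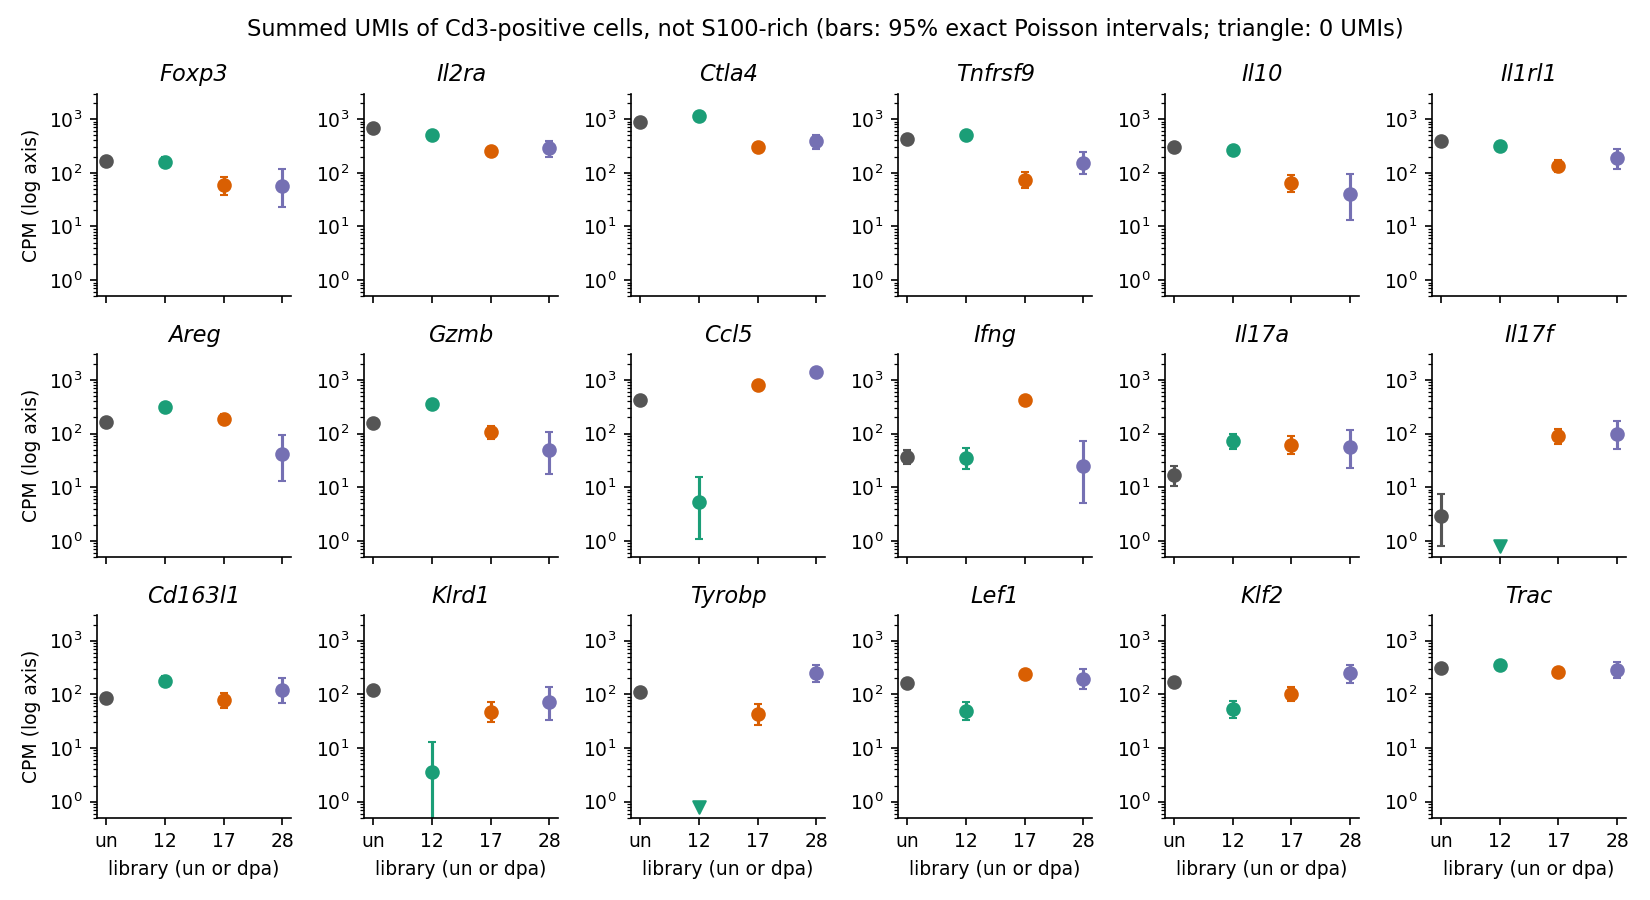
Level of 18 genes in T cells, in CPM of summed UMIs on a log axis, against the library on the x axis (un, unamputated; then dpa), with 95% exact Poisson bars that may run below the axis and a triangle for 0 UMIs. Ccl5, Klrd1 and Tyrobp are lowest at 12 dpa, Ifng is highest at 17 dpa at 424.3 CPM, and Foxp3, Il2ra, Il10 and Tnfrsf9 are lower at 17 and 28 dpa than before.

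Cell cycle genes were mostly lower at 12 dpa, few of them by 2-fold, and the 28 dpa medians of the residence and interferon lists depend on genes at 0 UMIs. Tissue residence genes had median log2 ratios of 0.08, -0.32 and -0.77, the last -0.02 with 2 genes at the floor; Itgae, the integrin chain CD103 that holds T cells in epithelium, was at 264.7, 268.2, 95.2 and 155.1 CPM, and Rgs1 at 545.2, 892.3, 817.6 and 277.6 CPM. Cell cycle genes had medians of -0.48, 0.09 and -0.31, with 14, 6 and 12 of 15 lower, against 59.4%, 56.4% and 61.3% of all genes. At least 2-fold lower at 12 dpa were 3 of the 15 and 15.3% of all genes. Mki67, a marker of cycling cells, was at 94.7, 50.8, 175.9 and 49 CPM, its 85 UMIs at 17 dpa being in 12 of 85 cells and 45.9% of them in 1 cell. Immediate early genes, which digestion can induce, had medians of -0.16, 0.1 and -0.45 over 21 genes, and interferon-stimulated genes -0.15, -0.53 and -0.86 over 13, the last 0 with 3 genes at the floor and from 59 UMIs in all. Of cytokines that act on fibroblasts, Tgfb1 was at 173.5, 171.8, 198.7 and 195.9 CPM, with every interval of its ratio spanning 0. Il13 had 4, 0, 1 and 0 UMIs, Il5 1, 0, 0 and 0, and Il4 0, 0, 7 and 0 in 1 cell. Type 2 cytokines were thus nearly undetected at this depth, although Gata3, their master factor, was at 134.5, 106.9, 132.5 and 122.5 CPM. Themis, which tunes receptor signalling, was at 86.8, 38.6, 298.1 and 122.5 CPM, the signalling gene with the largest log2 ratio at 17 dpa (1.77, 1.42 to 2.14).

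**Figure D5:**
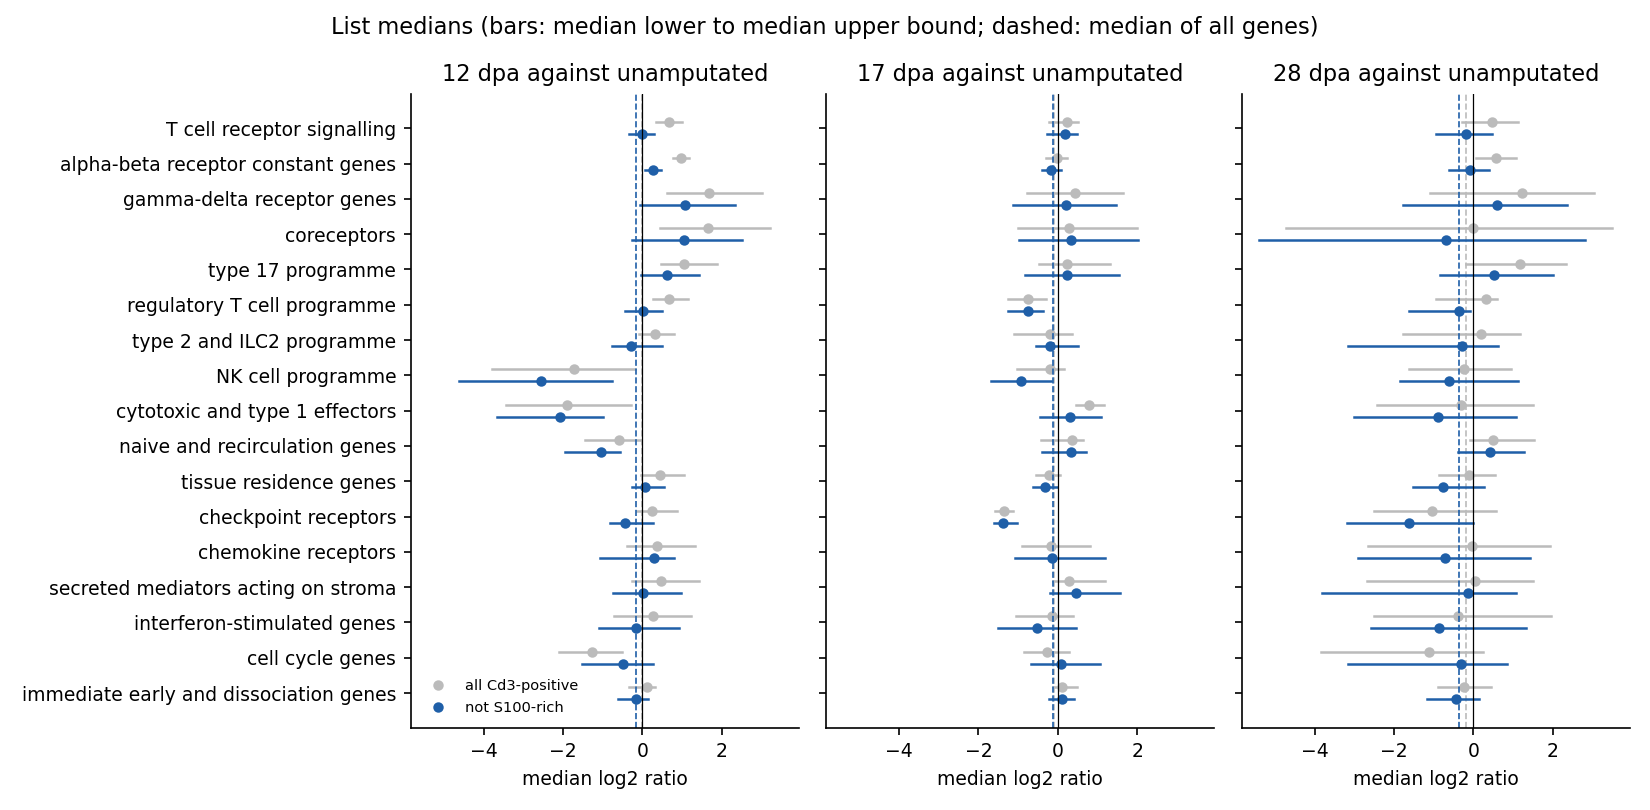
Median log2 ratio to the unamputated library on the x axis for 17 gene lists, at 12, 17 and 28 dpa, in all Cd3-positive gate cells (grey) and in T cells without S100-rich cells (blue); bars run from the median of the members' lower bounds to that of their upper bounds, and dashed lines mark the median of all genes. The NK and cytotoxic lists are lowest at 12 dpa (-2.54 and -2.08 in T cells) and the regulatory list is at 0.01, -0.75 and -0.36.

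The Cd3-negative lymphocytes carried NK cell transcripts. Klrb1c or Ncr1, which the rule used, was in 54 of 56, 3 of 3, 11 of 12 and 7 of 8. A Cd3-negative cell enters the gate only through Nkg7, Klrb1c and Ncr1, so innate lymphocytes without these genes are not among them. Gata3 was in 20 of 56, 3 of 3, 4 of 12 and 2 of 8. Outside the rule, Klrd1 had 205, 5, 36 and 15 UMIs in 50, 2, 11 and 7 cells, and the NK receptor gene Klra4 had 308, 0, 42 and 14. Eomes, a factor of circulating NK cells, was in 32 of 56, 0 of 3, 8 of 12 and 3 of 8. Il1rl1, a marker of type 2 innate lymphocytes, which the rule would leave out, and Trac had no UMI in any library. Trbc1 was present (192, 16, 59 and 27 UMIs), and Trdc had 28, 0, 3 and 5 UMIs; both loci can be transcribed without rearrangement. Ccl5 was abundant at 3063.5 CPM in 50 of 56 cells of the unamputated library, 3722.6 CPM in 11 of 12 at 17 dpa and 7439.8 CPM in 8 of 8 at 28 dpa, with 4 UMIs in 1 of 3 at 12 dpa. Granzyme A (Gzma) had 64, 0, 62 and 41 UMIs in 20, 0, 7 and 4 cells, and Gzmb 10, 1, 2 and 1, while Gzmk had none. Only the unamputated library held 50 or more of these cells, so no ratio between libraries was formed. Their macrophage and dendritic cell lists summed to 948.1 and 2112.6 CPM in the unamputated library, against 2879.8 and 1586.3 CPM in all other cells.

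Across all genes, the number of differences was not the same with and without the S100-rich cells. In all Cd3-positive gate cells 731 of 4224 genes at 50 CPM or more (17.3%) differed at least 2-fold at 12 dpa, 234 of 4003 (5.85%) at 17 dpa and 1172 of 4265 (27.5%) at 28 dpa. Among genes ranked without the lists of other cells and without those at a lower CPM here than in all other cells of the higher library, the 5 lowest at 12 dpa were Lcn2, Wfdc21, Chil3, Tyrobp and Ifitm6, all with 0 UMIs at 12 dpa. Lcn2, a neutrophil granule protein, had 6489 UMIs in the unamputated library and 0 at 12 dpa. In T cells alone 120 genes (2.87%) were higher and 310 (7.42%) lower at 12 dpa. There were 159 (3.77%) and 278 (6.59%) at 17 dpa, and 242 (5.68%) and 799 (18.8%) at 28 dpa. At 28 dpa 50 CPM stands for 6.12 UMIs, and the counting interval excluded 0 for 203 of the 242 and 568 of the 799; at 12 and 17 dpa it did for every gene counted. For 56, 39 and 74 of the genes counted as higher, most UMIs were in 1 cell.

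The genes with the largest ratios included many from other cell types. Genes of the lists of other cells, such as the neutrophil genes Retnlg and Elane and the keratinocyte gene Krt15, were left out of this ranking, as were genes at a lower CPM in T cells than in all other cells of the higher library, so the order is over the remaining genes. The 5 highest at 12 dpa, Ibsp, Col2a1, Col10a1, Snorc and Mia, are bone and cartilage genes: Ibsp, Col2a1 and Col10a1 had 1626 UMIs together, of which 1625 were in 1 cell. The 5 lowest were Ccl5, Klra4, Xcl1, Prtn3 and Plac8; the granule protease Prtn3 had 98.7% of its unamputated UMIs in 1 cell. At 17 dpa the highest were Il17f, Ifng, Hist1h3c, Tbc1d4 and Serpinb9 and the lowest Sele, Slc44a5, Prtn3, Gm13481 and Plxna4. Gm13481 had 230 UMIs in 48 T cells of the unamputated library and 2 in 1 cell at 17 dpa, so it does not rest on 1 cell, while Sele, an endothelial adhesion molecule, had 216 UMIs in 3 cells. At 28 dpa the highest were Scx, Il17f, Krt6a, Fmod and Dsg3, which but for Il17f are tendon and keratinocyte genes with 88.9% or more of their UMIs in 1 cell, and the lowest Adamts9, Sele, Ccl4, Ccrl2 and Penk. These 5 had 0 UMIs at 28 dpa, so their order follows from the unamputated level, and with the floor of 3 UMIs they were at least 7.29-, 6.38-, 6.05-, 6.02- and 4.9-fold lower. At 12 dpa Klra4, Xcl1, Prtn3 and Plac8 had 0 UMIs and were at least 11.7-, 10.9-, 10.4- and 9.76-fold lower. At 17 dpa Sele, Slc44a5 and Prtn3 had 0 UMIs and were at least 25.2-, 9.43- and 8.85-fold lower. Transcripts of other cells were in T cells of every library: all 6 fibroblast genes, at 3398.6, 7658.8, 6166 and 5788.6 CPM in sum, against 22829, 31483, 31080 and 19658 CPM in all other cells. All 6 keratinocyte genes were detected too, at 188, 732.7, 1086.6 and 832.8 CPM, and 9, 6, 8 and 7 of 10 macrophage genes at 543, 539.9, 414 and 538.9 CPM. The neutrophil list was at 1039.8 CPM in T cells of the unamputated library (10 of 10 genes) and at 12.3, 99.4 and 40.8 CPM later (3, 6 and 3 of 10), and its part in the differences was not tested.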

How the data were processed

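Raw UMI counts per gene and cell, deposited by the authors as filtered matrices, came from Cell Ranger 7.1.0 per the file headers and mm10 per the submitters' processing notes. Python 3.11.15, numpy 2.4.6, scipy 1.17.1 and pandas 2.3.3 were used here. Counts were summed per library and class and given as CPM with exact Poisson intervals; log2 ratios used a pseudocount of 1 CPM and exact conditional binomial intervals, and shares had Clopper-Pearson intervals, with a limit of 3 counts quoted for a share of 0. A gene entered a list's median at 5 CPM and a count of differences at 50 CPM in the higher library. The 5 largest ratios per direction (leaving out mitochondrial, haemoglobin, immunoglobulin, Y-linked, Xist and Tsix genes, genes of the lists of other cells, and genes at a lower CPM than in all other cells of the higher library) and the 10 per class contrast were named, beside genes of the lists; genes named after their values were seen are marked so. Doublets were scored with Scrublet in scanpy 1.11.5 and kept. Thinning drew 1000 or 2000 UMIs per cell, leaving shallower cells out. The ratio scripts were tested on simulated data. Alternatives were other cell filters, rule sums, gene minimums, pseudocounts, doublet removal and weighting by cell. The members and lists were chosen with earlier results of these data known. Some genes are not reported here.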

Additional observations from a re-analysis of the deposited data

Results flagged for a closer look

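Xist, the transcript of the inactive X chromosome, was at 472.4 CPM in gate cells at 12 dpa (275 UMIs in 67 of 130 cells) and had no UMI in the gate cells of the other 3 libraries. It stands out as a signal outside the comparisons made, in libraries labelled as pooled from both sexes. The part of sex in the values at 12 dpa was not tested and cannot be told apart from the time point.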

How the results depend on the processing

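Of the values recomputed under the alternatives, 30 counts, 412 gene ratios, 643 list medians and 121 shares kept their reading, while 9, 46, 17 and 51 moved and 10 ratios and 3 medians reversed. Values here are for the whole gate or all Cd3-positive gate cells unless stated. A gene minimum of 100 CPM gave 400, 112 and 560 genes at least 2-fold different at 12, 17 and 28 dpa in place of 731, 234 and 1172. Without S100-rich cells, an alternative added after the data were seen, the counts were 430 at 12 dpa and 437 at 17 dpa, and a rule sum of at least 5 UMIs gave 365 at 17 dpa.

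Without S100-rich cells the 12 dpa log2 ratio of Foxp3 was -0.07 in place of 0.63, of Il10 -0.17 in place of 0.49, of Il1rl1 -0.27 in place of 0.42 and of Il2ra -0.43 in place of 0.27; a rule sum of 5 gave -0.17 for Il1rl1 and -0.28 for Il2ra. The 17 dpa ratio of Gzmb, -0.55, was 0.10 as a mean over cells, and with S100-rich cells left out these were -0.51 and 0.07. With a rule sum of 5 the 28 dpa ratio of Il17a was -0.43 in place of 2.35, and the same rule sum with S100-rich cells left out gave -0.71 in place of 1.72. List medians without S100-rich cells were -0.01 for receptor signalling at 12 dpa (0.68 with them), -0.09 for alpha-beta genes at 28 dpa (0.58; -0.07 at a sum of 5), 0.30 for the cytotoxic list at 17 dpa (0.80; 0.42 at a sum of 5) and 0.01 for the regulatory list at 12 dpa (0.68; 0.13 at a sum of 5).

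The gate's share was 1.92%, 1.53%, 1.1% and 0.206% at a sum of 5, and at a sum of 2 it was 4.04% in the unamputated library and 2.27% at 17 dpa. It was 1.39%, 1.3%, 0.722% and 0.272% after thinning to 2000 UMIs, and 7.79%, 7.43%, 5.49% and 1.66% of cells with Ptprc. A stricter cell filter gave 3.86% unamputated and 2.36% at 12 dpa, and leaving out S100-rich cells 2.03% unamputated and 1.12% at 17 dpa. The Cd3-positive share of the gate was 100% at 12 dpa after thinning (97.7% before) and 77% unamputated without S100-rich cells (82.3% with them). The Foxp3 share was 10%, 19.7% and 5.83% in the first 3 libraries after thinning to 1000 UMIs, and in the unamputated library 43.2% at a sum of 5 and 48.7% without S100-rich cells. The Trdc share there was 5.93% after thinning and 14.4% without S100-rich cells. Apart from changes that follow from leaving cells or UMIs out, the cause was not tested.

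No paired analysis was possible because each group is 1 library and no result comes from a test. Depth limits the 28 dpa values most, with 35 T cells.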
